A study of Mus musculus with 12 samples.

Results

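The colony-stimulating factors are 3 secreted proteins and their receptors, followed here through 7 genes: the ligand genes Csf1, Csf2 and Csf3 and the receptor genes Csf1r, Csf2ra, Csf2rb and Csf3r. The genes were taken by name, and all 7 were measured among the 19369 genes of the libraries made from total tumour suspensions and the 18574 genes of the libraries made from CD45+ leukocytes. The study injected cells of the mouse triple-negative mammary carcinoma line 4T1 into the mammary fat pad of female BALB/c mice aged 9 to 11 weeks. The groups were 5 clones, each grown from a single cell and named Clone E, Clone EM1, Clone EM2, Clone EM3 and Clone M, and the uncloned parental line, written Parental here. The submitters describe the clones as spanning epithelial, intermediate and mesenchymal states. No agent or engineered allele is named in the labels, and all mice were immune-competent hosts of 1 strain. Each group was 1 tumour, giving 1 Total and 1 CD45 library, so clone, mouse and tumour cannot be told apart and no test between groups is possible.

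CSF1, also called M-CSF, binds the receptor tyrosine kinase encoded by Csf1r and keeps monocytes and macrophages alive. CSF2, or GM-CSF, binds a receptor of a specific alpha chain (Csf2ra) and a signalling beta chain (Csf2rb) that is shared with the receptors for interleukins 3 and 5, and it signals through the kinase JAK2 and the transcription factor STAT5. CSF3, or G-CSF, binds the receptor encoded by Csf3r and drives the production of neutrophils; 4T1 tumours are known for secreting it and for the large numbers of granulocytes in the mice that bear them.

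Levels are given as CPM, the UMIs of a gene divided by all UMIs of a cell class within that library and scaled to 1000000, with cell classes as the authors deposited them. Ranges in square brackets are 95% intervals from Poisson counting (Clopper-Pearson for shares of cells); they cover counting error only and say nothing of how tumours of 1 clone differ. The 12 libraries held 6709 to 13467 cells and 28083101 to 122055131 UMIs, and 112323 cells were left after 3289 of 115612 (2.84%) were set aside as likely doublets. Libraries of the same tumour, of Clone E with Clone EM3, and of Clone EM1 with Clone EM2 shared 12.2% to 19.1% of their bead barcodes (14 pairs of libraries), against 0.686% to 1.91% for the other 52 pairs. Clone E and Clone EM3 were therefore taken as captured together, as were Clone EM1 and Clone EM2, whereas in a comparison of Clone M with Clone E the capture and the clone cannot be told apart. Whole cell barcodes were shared by 12 of 66 library pairs, by at most 189 cells. The classes carried their markers: summed keratin and other tumour markers were 2759 to 10934 CPM in tumour cells, summed macrophage markers 10258 to 16815 CPM in macrophages of the CD45 libraries, and summed granulocyte markers 132941 to 203620 CPM in granulocytes. The class named Unknown in the Total libraries, with at most 67 cells, carried macrophage markers (5526 to 8821 CPM) together with tumour markers (1459 to 3027 CPM), and both Csf1r (491 to 672 CPM) and Csf3 (409 to 1515 CPM). It was not used further.

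The sequence upstream of a gene's start is shown for 3 members that were read in different cells. They are 1 ligand of tumour cells, fibroblasts, endothelial cells and granulocytes (Csf1) and 2 receptors of myeloid cells (Csf2ra and Csf3r). RefSeq promoter entries matched 4 of the 7 members on build GRCm38.p6, the same assembly as mm10. The entries of 1 chromosome were not used, so a member without a match may still have an entry. Csf2 is not shown because the entry did not begin at an annotated transcript start. Each run is the 250 bases before the start, read along the gene's own strand: chr3:107760470-107760719 on the minus strand for Csf1, chr19:61228419-61228668 on the minus strand for Csf2ra, and chr4:126024409-126024658 on the plus strand for Csf3r.
Csf1: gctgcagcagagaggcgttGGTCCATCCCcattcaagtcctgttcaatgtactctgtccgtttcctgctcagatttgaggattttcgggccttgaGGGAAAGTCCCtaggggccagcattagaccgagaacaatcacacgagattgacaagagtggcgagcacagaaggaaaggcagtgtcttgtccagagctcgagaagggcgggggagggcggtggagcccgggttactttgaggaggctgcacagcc
Csf2ra: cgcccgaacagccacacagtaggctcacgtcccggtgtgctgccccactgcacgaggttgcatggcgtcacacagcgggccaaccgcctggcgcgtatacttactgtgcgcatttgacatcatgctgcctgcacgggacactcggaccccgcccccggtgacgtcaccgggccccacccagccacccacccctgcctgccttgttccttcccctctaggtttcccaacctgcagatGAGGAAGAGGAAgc
Csf3r: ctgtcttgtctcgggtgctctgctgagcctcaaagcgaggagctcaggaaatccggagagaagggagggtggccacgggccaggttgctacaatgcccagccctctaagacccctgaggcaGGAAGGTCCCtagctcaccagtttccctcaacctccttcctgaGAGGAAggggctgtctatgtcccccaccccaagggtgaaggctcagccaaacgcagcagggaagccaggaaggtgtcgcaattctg
Capitals mark matches, on either strand, to GAGGAA, a core that the myeloid transcription factor PU.1 is known to bind, and to GGGA followed after any 4 bases by CC, a loose form of the NF-kappaB site. Csf1 had 3 matches to the NF-kappaB form, beginning 231, 155 and 154 bases before the start, the last 2 being overlapping readings of 1 palindrome-like run on opposite strands. Csf2ra had 2 adjoining matches to GAGGAA, 14 and 8 bases before the start, and Csf3r had 1 match, 86 bases before it, and 1 match to the NF-kappaB form 129 bases before it. Among 32536 RefSeq promoters of the chromosomes used, 23.4% held GAGGAA and 17.7% held the NF-kappaB form in the same 250 bases. A match is therefore common and describes only the letters.

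Csf3 was a transcript of the tumour cells themselves. Its level in tumour cells was 3380 CPM in Clone E, 2986 CPM in Parental, 2299 CPM in Clone EM1, 2171 CPM in Clone EM2, 1673 CPM in Clone EM3 and 887 CPM in Clone M. No 2 neighbours in that order had overlapping counting intervals. Clone E was highest and Clone M lowest, with a log2 ratio of Clone M over Clone E of -1.93 [-1.95 to -1.91], that is 3.81-fold. Within the capture that Clone E and Clone EM3 shared, Clone EM3 was lower than Clone E by a log2 ratio of -1.01 [-1.04 to -0.99]. Clone EM1 and Clone EM2, also captured together, lay close, at a log2 ratio of 0.08 [0.07 to 0.10]. Tumour cells gave 93.1% to 97.4% of all Csf3 UMIs of the Total library in 5 tumours. In Clone E they were only 7.15% of the cells, and still gave 76.6% of the Csf3 UMIs.

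**Figure D1:**
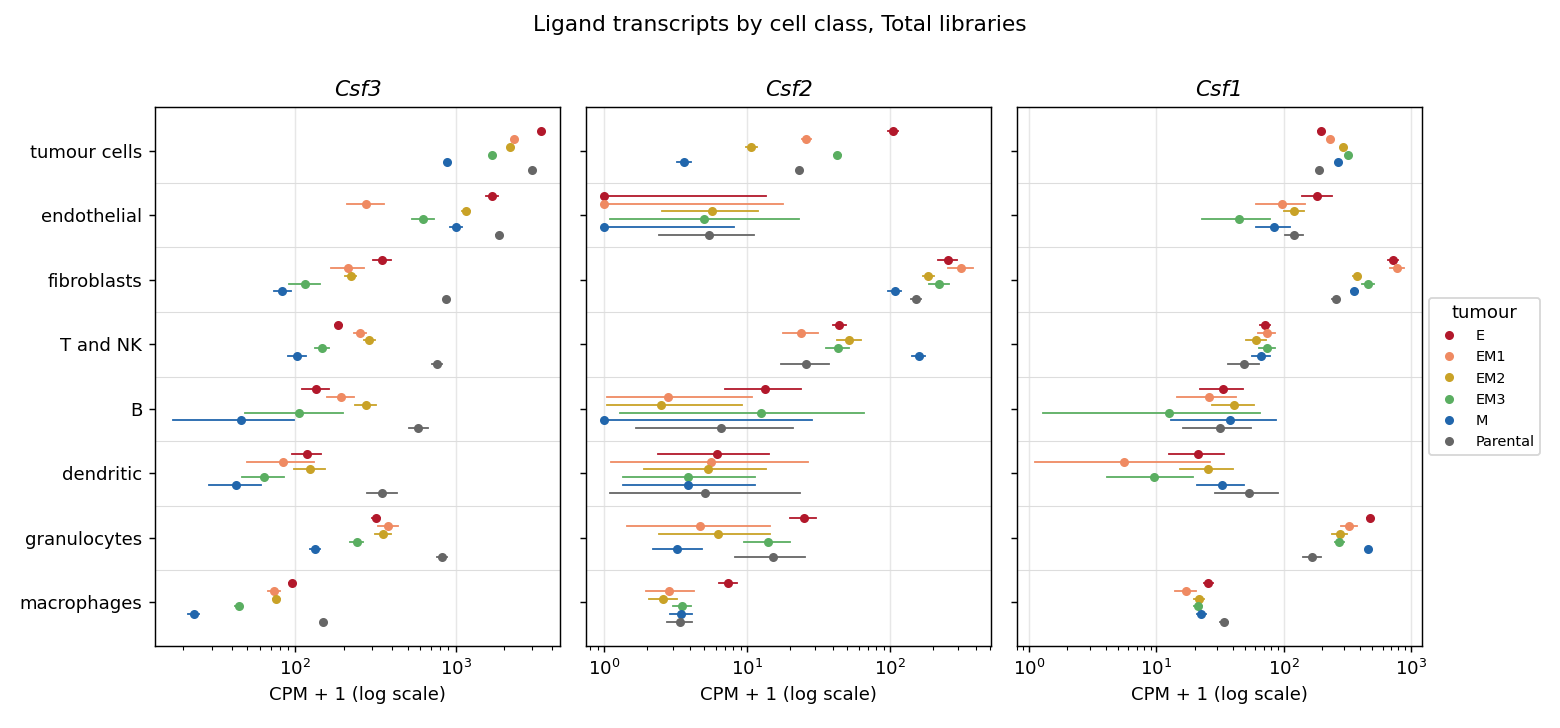
Levels of Csf3, Csf2 and Csf1 in 8 cell classes of the Total libraries (x axis, CPM + 1 on a log scale, 1 colour per tumour, bars are 95% counting intervals). Csf3 was highest in tumour and endothelial cells, Csf2 in fibroblasts of 5 tumours and in T and NK cells of Clone M, and Csf1 in fibroblasts, granulocytes and tumour cells.

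Endothelial cells also had Csf3. Their Csf3 level was 1850 CPM in Parental, 1689 CPM in Clone E, 1157 CPM in Clone EM2, 999 CPM in Clone M, 627 CPM in Clone EM3 and 275 CPM in Clone EM1, from 37 to 146 cells a tumour. In Clone M this was 113% of the level in the tumour cells of the same library, and in the other tumours it was 12% to 62.0%. The keratins Krt8 and Krt18, which mark the tumour cells, were in endothelial cells at only 3.51% to 16% of their tumour-cell level, so the Csf3 percentage was 3.32 to 30.1 times the keratin percentage, above it in 6 of 6 tumours. The endothelial markers Pecam1, Cdh5, Kdr and Emcn summed to 4574 to 5480 CPM in this class. Fewer than 50 endothelial cells were present in Clone EM1 and Clone EM3. In Clone EM3 1 of the 37 cells held 44.0% of the Csf3 UMIs, and the level without it was 372 CPM.

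In the leukocytes of the Total libraries, by contrast, Csf3 went with the keratins. In T and NK cells Csf3 was 102 to 763 CPM, which was 5.45% to 25.5% of the tumour-cell level, beside 4.71% to 25.1% for the keratins, a ratio of 0.93 to 1.15. The ratio was 0.89 to 1.10 in macrophages and 0.94 to 1.16 in granulocytes. In the CD45 libraries, where few tumour cells were present, Csf3 was 0 to 6.48 CPM in T cells, 1.02 to 4.35 CPM in macrophages and 4.20 to 18.5 CPM in granulocytes. Fibroblasts had a ratio of 1.07 to 2.93, above 1 in 6 of 6 tumours, at 81.7 to 866 CPM.

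**Figure D2:**
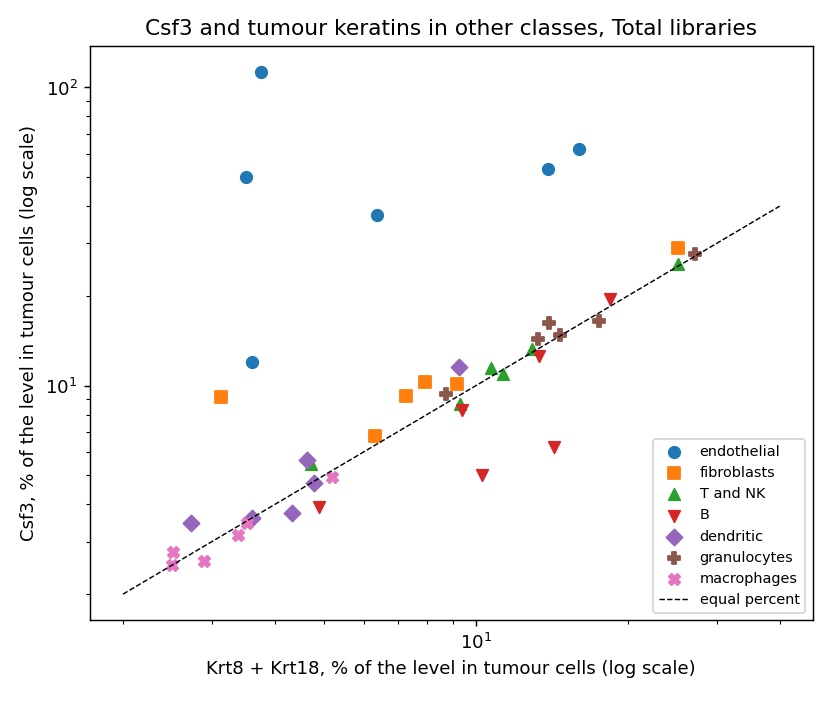
Csf3 in each class as a percent of its level in tumour cells (y axis, log scale) against the same percent for the summed keratins Krt8 and Krt18 (x axis, log scale), 1 point per class and tumour of the Total libraries; the dashed line marks equal percents. Endothelial points lie 3.32 to 30.1 times above the line, while macrophages and T and NK cells lie close to it.

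Csf2 was read in tumour cells, fibroblasts and T cells. In tumour cells its level was 103 CPM in Clone E, 41.5 CPM in Clone EM3, 24.9 CPM in Clone EM1, 22.1 CPM in Parental, 9.69 CPM in Clone EM2 and 2.61 CPM in Clone M. The intervals of Clone EM1 and Parental overlapped, and all other neighbours were apart. The log2 ratio of Clone M over Clone E was -5.31 [-5.57 to -5.05], 39.6-fold, and it was -3.17 when 10 CPM was added to both levels. Inside shared captures, Clone EM3 was lower than Clone E (log2 ratio -1.32 [-1.47 to -1.17]) and Clone EM1 was higher than Clone EM2 (1.36 [1.19 to 1.53]). A Csf2 UMI was found in 17.9% of tumour cells of Clone E, 12.4% of Clone EM3 and 1.35% of Clone M. In Clone E the cell with most Csf2 held 6.94% of the UMIs, so no single cell set the level. Fibroblast markers in tumour cells were 168 to 336 CPM and T cell markers 6.6 to 86.5 CPM. In tumour cells with a Csf2 UMI the T cell markers were 96.2 CPM in Clone E and 7.34 to 47.1 CPM in the other tumours. A UMI of Cd3d, Cd3e or Cd3g was held by 31 of the 138 such cells of Clone E and 13 of the 62 of Clone M. The part of T cell or fibroblast RNA in the Csf2 level of tumour cells was not tested.

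Fibroblasts, recognised by 49509 to 107769 CPM of collagen and other stromal markers, had Csf2 in every tumour. The level was 311 CPM in Clone EM1, 252 CPM in Clone E, 220 CPM in Clone EM3, 184 CPM in Clone EM2, 151 CPM in Parental and 107 CPM in Clone M. The first 4 overlapped with their neighbours, and Clone M stood lowest, at a log2 ratio to Clone E of -1.24 [-1.51 to -0.97]. Few fibroblasts held Csf2: 7 of 52 in Clone EM1, 18 of 135 in Clone E, 13 of 84 in Clone EM3 and 35 of 249 in Clone M. The richest cell held 26.4%, 26.7%, 24.2% and 19.4% of the UMIs in these tumours, and 9.65% in Clone EM2 and 6.07% in Parental. The counting intervals treat UMIs of 1 cell as independent. The fibroblasts of Clone E stood apart in their markers. Fibroblast markers were 49509 CPM there, the lowest of the 6 tumours, against 96637 CPM in Clone M. Tumour and plasma cell markers were highest in Parental, and B cell markers in Clone M. Markers of T cells, granulocytes and macrophages were the highest in Clone E. T cell markers were 840.4 CPM there against 179 CPM in Clone M. Granulocyte markers were 2226 against 981 CPM and macrophage markers 1936 against 1029.9 CPM. The part of these other cells' RNA in the Csf2 and Csf1 differences between fibroblasts of Clone M and Clone E was not tested. Although fibroblasts were 0.795% to 2.47% of the cells, they gave 46.2% of the Csf2 UMIs of Clone EM2, more than any other class there. In Clone M they gave 35.7%, close to the 37.0% of the T and NK cells. In Clone E, Clone EM1, Clone EM3 and Parental the tumour cells gave the larger part, 42.5% to 79.7%.

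In T and NK cells Clone M was highest. The level in this class of the Total libraries was 158 CPM in Clone M, 50.7 CPM in Clone EM2, 43.1 CPM in Clone E, 42.2 CPM in Clone EM3, 24.7 CPM in Parental and 22.9 CPM in Clone EM1. In Clone M 51 cells carried the 347 UMIs, and the richest held 46 of them. In Clone EM2 1 cell held 40.2% of the UMIs, and without the richest cell of each library Clone EM2 was 30.3 CPM, below Clone E (33.4 CPM) and Clone EM3 (31.5 CPM), with Clone M at 137 CPM. Markers of mast cells and basophils in this class were 108 CPM in Clone M, 91.3 CPM in Clone EM3 and 8.57 to 16.2 CPM in the other 4 tumours. In Clone M they were 233 CPM in the cells with a Csf2 UMI and 101 CPM in the rest; 10 of those 51 cells held a UMI of these markers and 31 held a UMI of Cd3d, Cd3e or Cd3g, which encode parts of the T cell receptor complex. The part of mast cell or basophil RNA in the Csf2 level of Clone M was not tested. In the CD45 libraries Csf2 in T cells was 138 CPM in Clone M and 2.67 to 16.1 CPM in the other 5 tumours, but 101 of the 149 UMIs of Clone M lay in 1 Cd44+ Cd4+ T cell that also held 165 UMIs of Il3, which encodes interleukin 3. Without the richest cell of each library the log2 ratio of Clone M over Clone E was 2.55 in place of 3.78. That 1 cell held all Il3 UMIs of the T cells of Clone M, whereas Il5, which encodes interleukin 5, another ligand that signals through the Csf2rb chain, was spread over 28 T cells in Clone M at 373 CPM, against 29.4 to 148 CPM in the other tumours; 1 cell held most of the Il5 UMIs in Clone EM2 and Parental, which were 8.02 and 32.7 CPM without it. In the class named T/Myeloid Hybrid, 63 of the 69 Csf2 UMIs of Clone EM1 came from 1 cell. Markers of mast cells and basophils were 176 to 6851 CPM in this class. In the few cells with a Csf2 UMI they were 2568 CPM in Clone EM1, against 751 CPM in the rest. They were also higher in such cells in Clone EM2, and lower in Clone EM3, Clone M and Parental. Their part in the Csf2 of this class was not tested. Macrophages, granulocytes, dendritic cells and B cells of the CD45 libraries had 0 to 1.84 CPM.

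Csf1 was spread over tumour cells, fibroblasts and granulocytes. In tumour cells it was 317 CPM in Clone EM3, 292 CPM in Clone EM2, 268 CPM in Clone M, 232 CPM in Clone EM1, 196 CPM in Clone E and 191 CPM in Parental. Clone E and Parental overlapped, and Clone M was above Clone E by a log2 ratio of 0.45 [0.36 to 0.54]. Fibroblasts had 777 CPM in Clone EM1, 723 CPM in Clone E, 458 CPM in Clone EM3, 374 CPM in Clone EM2, 360 CPM in Clone M and 257 CPM in Parental. Clone M was lower than Clone E in fibroblasts (log2 ratio -1.01 [-1.16 to -0.85], and -0.67 with TMM scaling) while being higher in tumour cells.

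Granulocytes carried Csf1 in both kinds of library. In the CD45 libraries the level was 527 CPM in Clone E, 511 CPM in Clone M, 344 CPM in Clone EM1, 317 CPM in Clone EM3, 228 CPM in Parental and 221 CPM in Clone EM2. Clone E and Clone M, the named ends of the clone series, overlapped (log2 ratio -0.04 [-0.13 to 0.05]) and both stood above the other 4 tumours. In the Total libraries the same 2 tumours were again highest, at 474 and 463 CPM, with the others at 167 to 328 CPM. Granulocytes were 23.3% of the cells in the Total library of Clone E and gave 38.3% of its Csf1 UMIs, more than the tumour cells with 23.6%; in the other 5 tumours the tumour cells gave 78.3% to 89.3%. Among T cells, the Gzmb+ Cd8+ subtype held 47.4 to 167 CPM in the 5 clones, and 0 CPM in Parental, where it was 8 cells. Macrophages of the CD45 libraries, the main cells with the receptor, had 8.29 to 24.9 CPM.

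**Figure D3:**
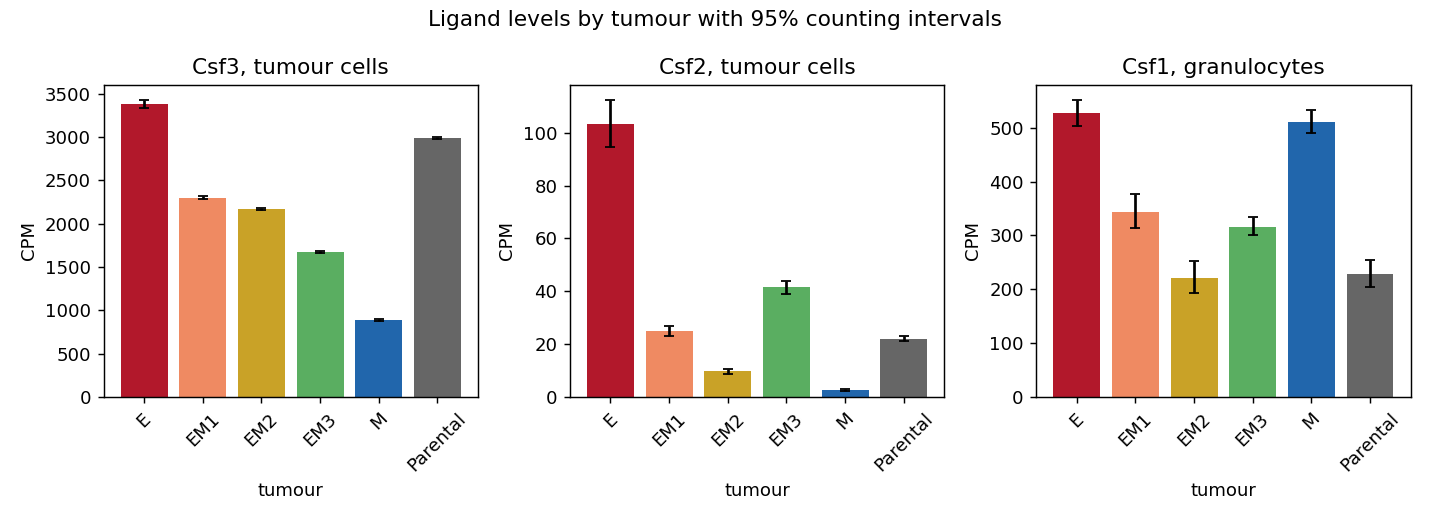
Csf3 and Csf2 in tumour cells of the Total libraries and Csf1 in granulocytes of the CD45 libraries, by tumour (y axis, CPM; error bars are 95% counting intervals, 1 tumour per bar). Csf3 and Csf2 were highest in Clone E and lowest in Clone M, while Csf1 in granulocytes was highest in both.

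Counted over the transcriptome, 32.2% of the 5829 genes with at least 50 CPM in tumour cells of some tumour differed at least 2-fold between the highest and the lowest tumour, with 9.56% at least 2-fold lower and 9.16% at least 2-fold higher in Clone M relative to Clone E. Of the 4 members that reached 50 CPM in tumour cells, 3 differed at least 2-fold and were lower in Clone M, namely Csf3, Csf2 and Csf2rb. Csf2 and Csf2rb passed the minimum through Clone E, where they were highest, so nothing is read from their calls. Csf2rb in tumour cells (4.34 to 77.7 CPM) stood beside macrophage markers of 77.3 to 369 CPM. In fibroblasts, 38.7% of 4972 genes differed at least 2-fold, with 10.7% lower and 2.82% higher in Clone M. All 7 members reached 50 CPM and were at least 2-fold lower in Clone M. Only 4 of the 7 were so with TMM scaling, which left Csf1 (-0.67), Csf2 (-0.90) and Csf3r under 2-fold. The share of all genes lower with TMM scaling was not counted in fibroblasts. The receptors there stood beside macrophage markers of 331 to 1936 CPM. Csf1r in fibroblasts was 2.04% to 23.4% of its macrophage level, and the macrophage markers were 2.10% to 21.9% of theirs. The part of macrophage RNA in the result was not tested. Related ligands in the same cells included Il34, the second ligand of the CSF1 receptor, at 46.4 to 107 CPM in tumour cells and 54.6 to 82.1 CPM in fibroblasts, and Kitl, which encodes stem cell factor, at 174 to 289 CPM in endothelial cells. Among 9 inducers of the ligands and their receptors, 7 reached 50 CPM in tumour cells, and Il1a (62.8 CPM in Clone E, 4.06 CPM in Clone M) and Il1b (241 and 41.9 CPM), which encode interleukin 1, were at least 2-fold lower in Clone M. Il1a passed the minimum of 50 CPM only through Clone E, and Il1b was under it in Clone M, so nothing is read from either call. Il1b was lower still in Clone EM2 (22.8 CPM) and Clone EM1 (17.9 CPM). The granulocyte genes S100a8 and S100a9 were lower in tumour cells of Clone M than of Clone E as well (520 to 247 CPM and 605 to 261 CPM). Whether granulocyte RNA had a part in the interleukin 1 values was not tested.

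Csf1r marked the macrophages. In the CD45 libraries its level in macrophages was 1343 CPM in Clone EM2, 1296 CPM in Clone EM1, 1285 CPM in Clone M, 1125 CPM in Parental, 1078 CPM in Clone EM3 and 838 CPM in Clone E. Clone EM1 and Clone M overlapped and Clone E was lowest; the log2 ratio of Clone M over Clone E was 0.62 [0.59 to 0.64], and of Clone EM3 over Clone E, in 1 capture, 0.36 [0.34 to 0.39]. The Total libraries also had Clone E lowest, at 830 CPM against 1144 to 1400 CPM. The class named Other Myeloid had a like range, 800 to 1265 CPM, again lowest in Clone E. In T cells Csf1r was 3.75% to 11.7% of the macrophage level, beside 4.67% to 12.2% for the summed macrophage markers, and in granulocytes 10.5% to 20.1% beside 9.77% to 20.2%. Dendritic cells had 184 to 566 CPM with macrophage markers of 7.81% to 43.3% of the macrophage level.

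**Figure D4:**
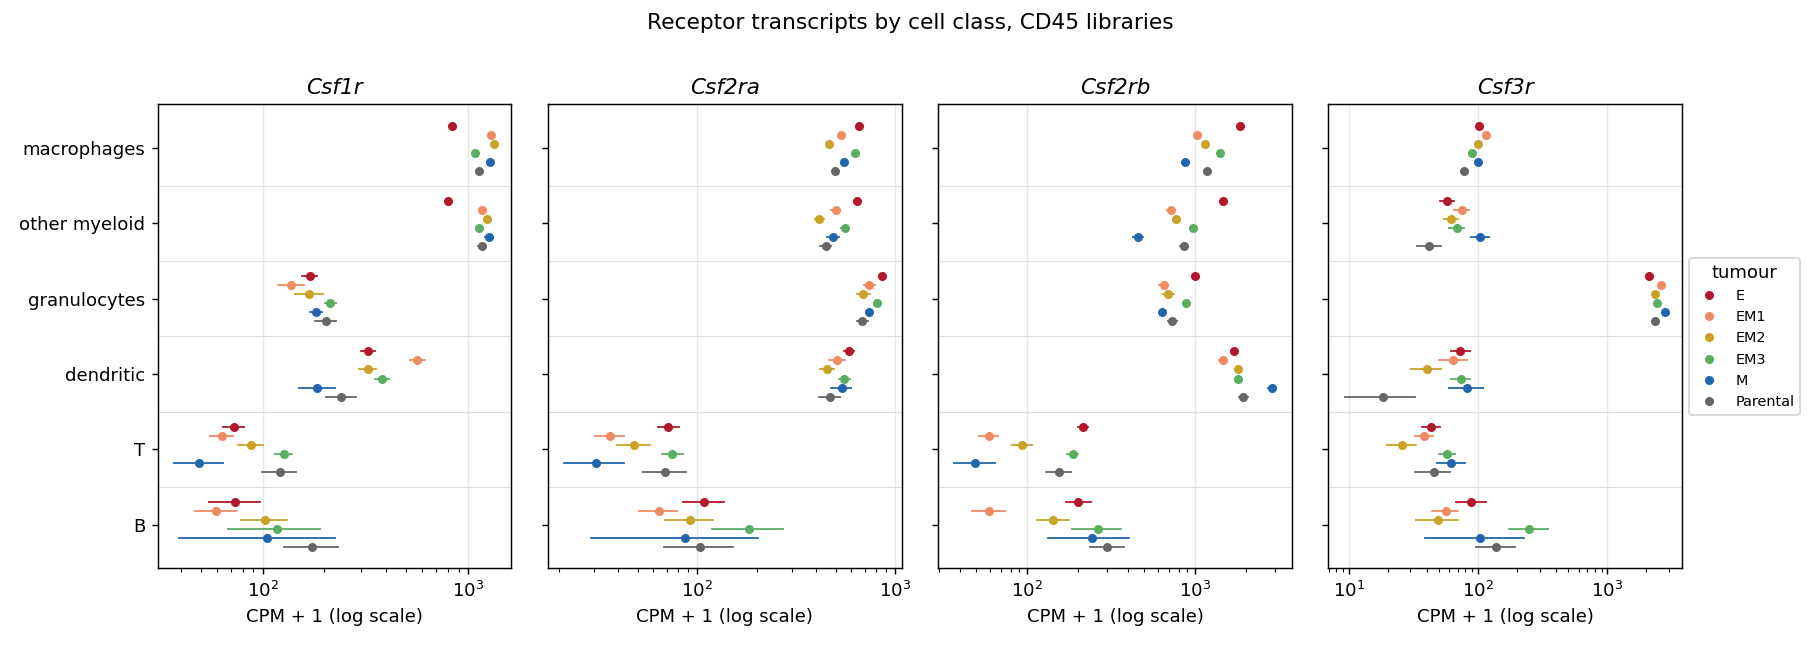
Levels of the 4 receptor transcripts in 6 classes of the CD45 libraries (x axis, CPM + 1 on a log scale, 1 colour per tumour, bars are 95% counting intervals). Csf1r was highest in macrophages and other myeloid cells, Csf3r in granulocytes, and Csf2ra and Csf2rb in all 4 myeloid classes.

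Csf2rb, the shared beta chain, was the receptor that differed most between tumours in macrophages. Its level there was 1858 CPM in Clone E, 1410 CPM in Clone EM3, 1170 CPM in Parental, 1151 CPM in Clone EM2, 1019 CPM in Clone EM1 and 873 CPM in Clone M. Parental and Clone EM2 overlapped. Clone M was lower than Clone E by a log2 ratio of -1.09 [-1.11 to -1.06], 2.13-fold, which was -0.88, under 2-fold, as the mean of each cell's CPM. The log2 ratio of Clone EM3 over Clone E was -0.40 [-0.41 to -0.38] within 1 capture. In the Total libraries of the same tumours the order was the same at both ends, from 1885 CPM in Clone E to 746 CPM in Clone M. The Other Myeloid class ran from 1467 CPM in Clone E to 456 CPM in Clone M, and granulocytes from 998 CPM to 639 CPM (log2 ratio -0.64 [-0.72 to -0.57]). Csf2rb2, a neighbouring and closely similar gene whose product is a beta chain for interleukin 3, had the same ends in macrophages, 1211 CPM in Clone E and 652 CPM in Clone M; the split of counts between the 2 genes is uncertain, and the labels do not settle whether they were counted from gene-specific probes or from transcript reads.

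In dendritic cells Clone M was instead the highest. Csf2rb in dendritic cells of the CD45 libraries was 2871 CPM in Clone M, 1938 CPM in Parental, 1807 CPM in Clone EM2, 1794 CPM in Clone EM3, 1696 CPM in Clone E and 1463 CPM in Clone EM1. Clone M stood above the rest (log2 ratio to Clone E 0.76 [0.67 to 0.85]), from 94 cells. The Total libraries also had Clone M highest, at 2705 CPM. Ccr7, which marks dendritic cells on their way to lymph nodes, was 3283 CPM in Clone M, 1895 CPM in Clone E and highest in Parental with 4264 CPM, and macrophage markers in this class ranged from 1222 to 7277 CPM. As a percent of their macrophage level these markers were lowest in Clone M, at 7.81%, against 15.7% in Parental and 22.4% to 43.3% in the other 4 tumours. The markers were thus lowest in Clone M and Parental, where Csf2rb was highest. Whether macrophage RNA or a different mix of dendritic cells had a part in the Csf2rb difference was not tested.

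Csf2ra, the specific alpha chain, varied little. In granulocytes of the CD45 libraries it was 680 to 860 CPM, with every neighbour overlapping; in macrophages it was 654 CPM in Clone E, 623 CPM in Clone EM3 and 463 to 548 CPM in the other 4 tumours. The log2 ratio of Clone M over Clone E was -0.25 [-0.29 to -0.22] in macrophages and -0.22 [-0.30 to -0.15] in granulocytes. Other settings gave -0.57 to -0.25 in macrophages and -0.52 to -0.15 in granulocytes. In dendritic cells the range was 451 to 584 CPM.

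Csf3r was a granulocyte transcript and had its highest level in the tumour whose tumour cells had the lowest Csf3 level. In granulocytes of the CD45 libraries it was 2780 CPM in Clone M, 2608 CPM in Clone EM1, 2400 CPM in Clone EM3, 2333 CPM in Clone EM2, 2315 CPM in Parental and 2104 CPM in Clone E. Clone EM3, Clone EM2 and Parental overlapped in turn. The log2 ratio of Clone M over Clone E was 0.40 [0.36 to 0.44], and in the Total libraries it was 0.15, with Parental lowest at 1477 CPM and Clone M highest at 2298 CPM. Macrophages had 77.1 to 114 CPM, 3.33% to 4.75% of the granulocyte level, while summed granulocyte markers were at 0.221% to 0.993%. The receptor was above the markers in 6 of 6 tumours, with a ratio of 3.75 to 19.1. This was not particular to macrophages. Csf3r was above the markers in 6 of 6 tumours in Other Myeloid, dendritic and T cells too (ratio 1.68 to 2.39 in T cells). In B cells it was above them in 5 of 6.

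In macrophages 4 members reached 50 CPM and 1 of them, Csf2rb, differed at least 2-fold, beside 12.9% of 4357 genes; it was at least 2-fold lower in Clone M (not so as the mean of each cell's CPM), as were 4.31% of genes, and no member was 2-fold higher there, beside 4.5% of genes. In granulocytes 1 of 5 members, Csf1, differed at least 2-fold beside 18.5% of 3169 genes, and none was 2-fold higher or lower in Clone M, beside 1.83% and 4.95% of genes. With cells of at least 650 genes only, the number of such genes in granulocytes went from 586 to 1652. In dendritic cells 2 of 4 members, Csf1r and Csf3r, differed at least 2-fold beside 23.7% of 4687 genes; none was 2-fold higher or lower in Clone M, beside 2.45% and 7.3%. In T cells 6 members reached 50 CPM in some tumour and all 6 differed at least 2-fold, beside 17.5% of 5610 genes. Csf1 reached 50 CPM only through Clone EM1, where it was highest, so nothing is read from its call. In Clone M Csf2 was over 2-fold higher, beside 2.96% of genes, but it reached 50 CPM only through Clone M and was 44.6 CPM there without its richest cell, so nothing is read from it. Csf2ra and Csf2rb were 2-fold lower, beside 2.76%, but both were under 50 CPM in Clone M, so nothing is read from these 2 calls. Csf1r, Csf2ra and Csf2rb in T cells were taken as percents of their macrophage level and divided by the percent of the macrophage markers. The ratio was 0.80 to 1.00 for Csf1r, 1.02 to 1.54 for Csf2ra and 1.07 to 1.34 for Csf2rb. It was above 1 in 1 of 6 tumours for Csf1r and in 6 of 6 for Csf2ra and Csf2rb. The shares of genes called do not set the members apart from other genes in granulocytes, and 1 member in macrophages is too few to read.

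The genes that act downstream of these receptors were read in the same cells. Cish encodes an inhibitor that STAT5 induces and is among the best known targets of GM-CSF signalling. In macrophages of the CD45 libraries Cish was 152 CPM in Clone E, 95.5 CPM in Clone EM3, 44.2 CPM in Clone EM1, 25.0 CPM in Clone EM2, 24.4 CPM in Parental and 8.72 CPM in Clone M. Clone E and Clone EM3, captured together, were the highest, and Clone M was lower than Clone E by a log2 ratio of -4.13, which was -3.12 with 10 CPM added to both levels and -3.57 in the Total libraries. The Total libraries gave 161, 67.3, 46.5, 25.3, 26.4 and 13.6 CPM in the same order of tumours. Cish had the same highest and lowest tumours in granulocytes (113 CPM in Clone E, 56.0 CPM in Clone EM3, 10.3 CPM in Clone M in the CD45 libraries), dendritic cells (244, 218 and 29.4 CPM) and the Other Myeloid class (109, 54.0 and 4.41 CPM). In granulocytes of the Total libraries Cish was 106 CPM in Clone E, 64.2 CPM in Clone EM3 and 28.3 CPM in Clone M, which overlapped with Clone EM2 at 31.2 CPM. In T cells, where Csf2ra and Csf2rb were low, Clone M was instead the highest, at 469 CPM against 136 to 271 CPM.

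Of 12 signalling genes, 9 reached 50 CPM in macrophages. Relative to Clone E, 3 were at least 2-fold lower in Clone M, beside 4.31% of all genes tested. These were Cish, Socs3 (550 to 167 CPM) and Socs1 (74.9 to 32.0 CPM), which encode feedback inhibitors of cytokine receptors. Cish and Socs1 were under the minimum of 50 CPM in Clone M, so nothing is read from those 2 calls. Cebpa, a transcription factor of myeloid cells, was higher, at 354 CPM in Clone E and 881 CPM in Clone M. The median log2 ratio of the 9 genes was -0.93, and that of all 4357 genes tested 0.19. The list was chosen with earlier results of these data known, so its median is a description. Stat5a and Stat5b did not reach 50 CPM (Stat5a was 18.5 CPM in both tumours), and Jak2, at 134 CPM in Clone E and 70.0 CPM in Clone M, was under 2-fold. In granulocytes Cish and Socs3 were lower in Clone M (2 of 9 tested, beside 4.95% of all genes), and in dendritic cells Cish, Socs1, Socs3 and Cebpb (4 of 11, beside 7.3%). Cish was under 50 CPM in Clone M in both classes, so nothing is read from its calls there. The macrophages of Clone M also had less Il1b (1668 CPM against 6551 CPM in Clone E) and Il1a (235 against 754 CPM). Among granule genes in granulocytes, 3 of 8 tested were at least 2-fold lower in Clone M, beside 4.95% of all genes, namely Camp, Ltf and Ngp, which belong to the secondary granules of maturing neutrophils: Ngp was 1007 CPM in Clone M, 2813 CPM in Clone E and highest in Clone EM2 with 6664 CPM.

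Set side by side over the 6 tumours, Csf2 in tumour cells had the same highest, second and lowest tumours as Cish and Csf2rb in macrophages, which come from another library of the same tumours in the same capture. Csf2 of other classes was left out, although in Clone M tumour cells held 167 Csf2 UMIs, fibroblasts 335 and T and NK cells 347. Pearson's r of the log2 levels (10 CPM added) was 0.96 for Cish (exact permutation p = 0.00556, Spearman's rho 0.94 with p = 0.0167) and 0.92 for Csf2rb (p = 0.0125, rho 0.83 with p = 0.0583). These 2 relations, and those of Csf3 with Csf3r and Csf1 with Csf1r, were chosen after their values were seen, so their p-values are not independent evidence. The permutations exchange the 6 tumours freely, although Clone E and Clone EM3, the highest for all 3 transcripts, shared a capture, as did Clone EM1 and Clone EM2; the p-values do not account for this, and capture and clone cannot be told apart in them. Adjusted over all 7 relations computed, p was 0.0389 for Cish and 0.0438 for Csf2rb; without the Cish relation in the family the latter was 0.075. For the rank correlations the adjusted values were 0.117 and 0.136. Without Clone E and Clone M, r was 0.86 for Cish and 0.53 for Csf2rb, so the second rests on those 2 tumours. Within the capture of Clone E and Clone EM3 all 3 transcripts were lower in Clone EM3, whereas between Clone EM1 and Clone EM2 Csf2 and Cish were higher in Clone EM1 and Csf2rb was lower.

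**Figure D5:**
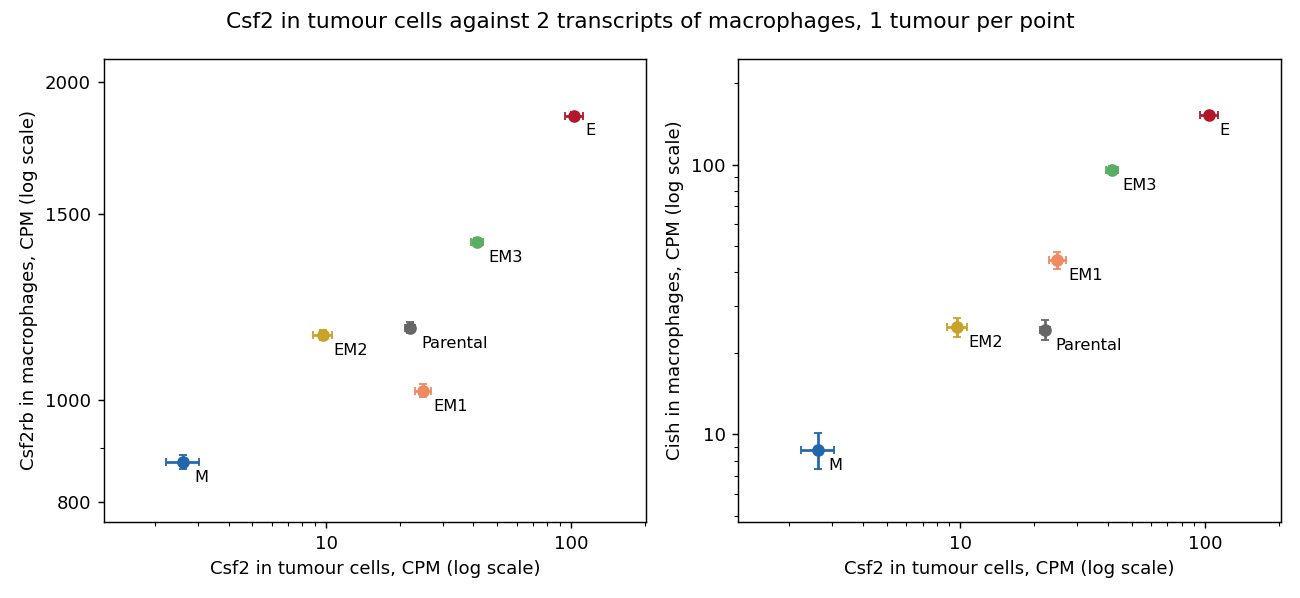
Csf2 in tumour cells of the Total libraries (x axis, CPM, log scale) against Csf2rb (left) and Cish (right) in macrophages of the CD45 libraries (y axes, CPM, log scale), 1 point per tumour with 95% counting intervals. Clone E is highest and Clone M lowest on each axis; over 6 tumours r was 0.92 and 0.96.

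Each ligand in tumour cells was set against the share of the cells it is known to act on, counted in the CD45 library. Granulocytes were 50.8% of the leukocytes of Clone M, 27.5% of Clone EM3, 24.8% of Parental, 24.2% of Clone E, 15.1% of Clone EM1 and 11.9% of Clone EM2. The tumour with the lowest Csf3 level within its tumour cells therefore had the largest granulocyte share. Over the tumours r was -0.74 (exact permutation p = 0.111, adjusted over the 3 planned relations 0.333, rho -0.49 with p = 0.356) and -0.13 without Clone E and Clone M. Tumour cells numbered 4600 in the Total library of Clone M and 771 in that of Clone E. The Csf3 of whole tumours was not compared. Csf1 and the macrophage share (33.5% to 51.5%) gave r of -0.16 (p = 0.715, adjusted 0.715, rho -0.37 with p = 0.497), and -0.03 without Clone EM3 and Parental. Csf2 and the share of dendritic cells (1.26% to 3.62%) gave r of 0.35 (p = 0.501, adjusted 0.715, rho 0.43 with p = 0.419), and -0.66 without Clone E and Clone M. None passed an adjusted p of 0.05. Csf3 and Csf3r in granulocytes had r of -0.83 (p = 0.0403, adjusted over 7 relations 0.094, rho -0.83 with p = 0.0583), and -0.19 without Clone E and Clone M; Csf1 and Csf1r in macrophages had r of 0.48 (p = 0.349, adjusted 0.488, rho 0.26 with p = 0.658), and 0.87 without Clone EM3 and Parental.

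The genes whose levels went most like each member were found over 48 class sums of the Total libraries, among 8755 genes, by Pearson's r of log2 levels; the sums share libraries and depth, so r is a description. Csf3 was most like Ephb4 (r 0.97), a receptor of ephrins, followed by B3gnt3 and C77080 (0.95 each). Csf2 was most like Dkk3 (0.83), Il1rl1, the receptor of interleukin 33 (0.83), and Penk (0.82). Csf1 was most like Egr1 (0.88), an immediate early gene, Slc25a37 (0.86) and Nfkbiz, a regulator of NF-kappaB (0.85). Csf1r was most like Lyz2, Mrc1 and Ms4a6d (0.97, 0.97 and 0.96), Csf3r like Mmp8, Grina and Tlr6 (0.97, 0.96 and 0.95), and Csf2ra like Gpr35, Cd14 and Spi1, which encodes PU.1 (0.97, 0.97 and 0.96). Csf2rb was most like its neighbour Csf2rb2 (0.96), then Spi1 and Kctd12 (0.94 each), and its r with Csf2ra was 0.91.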

How the data were processed

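Single-cell RNA was measured in 12 libraries of 6 tumours. Per the labels' protocols, magnetic beads took out the CD45+ cells, and both a kit for fixed RNA and reagents for transcript 3′ ends are named. The labels therefore do not settle whether UMIs count gene-specific probes or transcript reads. After the bead barcode, the cell barcodes of each library held 1 further sequence, a structure like that of a multiplexed fixed-RNA assay. The submitters' processing notes name Cell Ranger and mm10; versions, annotation and any doublet removal are not given in the sources used here. The deposited values are UMI counts per gene and cell, not normalized, with the authors' cell classes; the UMIs and genes of each cell summed to the deposited totals. Cells were scored for doublets within each library by a Scrublet-type method (2 simulated pairs per cell, 6% expected, 2000 variable genes, 30 components, seed 1), and counts of the rest were summed per class and tumour. A call is a fold of at least 2 among genes with at least 50 CPM in some tumour. Intervals are 95% exact; correlations used all 720 pairings of the tumours (two-sided), with Benjamini-Hochberg adjustment. The members and gene lists were chosen with earlier results of these data known. Named genes are the members, listed genes called between Clone M and Clone E with at least 50 CPM in 1 of them, and the 3 genes most like each member; Il34, Kitl, Csf2rb2, Ccr7, Stat5a, Stat5b, Jak2 and single-cell values were added after their values were seen. Software was Python 3.11.15 (numpy 2.4.6, scipy 1.17.1, pandas 2.3.3, matplotlib 3.10.9) and edgeR 4.0.16 in R 4.3.3, the last for TMM scaling only; the fold counts were tested on simulated data.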

Additional observations from a re-analysis of the deposited data

How the results depend on the processing

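No paired analysis was possible because each group is 1 tumour with 1 replicate, and no replicate could be left out. Of 123 alternative values for the log2 ratios of Clone M over Clone E, 83 stayed inside the counting interval of the reported value, 39 moved outside it and 1 turned a difference whose interval excluded 0; the cause was not tested. Csf1 in granulocytes, whose interval includes 0, was 0.11 in cells of at least 650 genes and 0.02 with TMM scaling, in place of -0.04. TMM scaling shifted the log2 ratio of every gene by 0.38 in tumour cells, 0.34 in fibroblasts and -0.30 in macrophages, and gave -1.55 for Csf3, -4.92 for Csf2 and 0.83 for Csf1 in tumour cells, 0.32 for Csf1r and -1.39 for Csf2rb in macrophages, and 0.47 for Csf3r in granulocytes. It left 4 of the 7 members at least 2-fold lower in fibroblasts of Clone M, without Csf1 (-0.67), Csf2 (-0.90) and Csf3r. The share of all genes lower with TMM scaling was not counted, so nothing is read from that number of members. A CPM total without the 50 most abundant genes gave 0.53 for Csf1r and -1.18 for Csf2rb in macrophages and -0.78 for Csf1 in fibroblasts. The mean of each cell's CPM gave -2.01 for Csf3, 0.58 for Csf1r, -0.88 for Csf2rb and 0.32 for Csf3r. The Total libraries gave -1.34 for Csf2rb and 0.15 for Csf3r, and turned Csf1r in dendritic cells from -0.83 to 0.64. Csf2 in tumour cells was -5.02 with doublets kept and -3.17 with 10 CPM added, Csf3 was -1.98 in tumour cells with no UMI of Ptprc, and Csf3r was 0.51 in cells of at least 650 genes. With shares from the immune cells of the Total libraries, r was 0.22 for Csf1 with the macrophage share and -0.18 for Csf2 with the dendritic cell share; without Parental the former was 0.14. Without Parental, r of Csf2 was 0.92 with Csf2rb and 0.99 with Cish, with adjusted exact permutation p of 0.146 and 0.117 over 5 tumours, which allow fewer pairings. Genes at least 2-fold apart in granulocytes numbered 586, and 1652 in cells of at least 650 genes. The relations between ligand and receptor or Cish levels, and the removal of the richest Csf2, Csf3 or Il5 cell, were chosen after seeing the data. Granulocytes had a median of 788 to 1460 UMIs per cell in the Total libraries, which limits what single cells of this class can show.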
